A study of Homo sapiens with 18 samples.

Results

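Mitochondria-depleted irradiated cells were compared with proliferating cells to ask which part of the irradiation programme remained without mitochondria and which changes were not seen in irradiated cells that kept them. The comparison rested on 16994 genes that passed a filter on low counts, of 57500 in the count table, and on 6 of the 18 RNA-seq libraries of the series. The cells were human fibroblasts of the line IMR90. In the depleted group they had been engineered to lose their mitochondria when given the uncoupler CCCP. Prol was 3 libraries of unirradiated proliferating cells. Sen (IR) + CCCP was 3 libraries of cells that received 20 Gy of X-rays, CCCP for 48 h from day 1, and were collected on day 12. Sen (IR), 3 libraries of cells with the same dose collected on day 12 without CCCP, gave the irradiation programme in cells that kept their mitochondria. The labels do not say whether Prol and Sen (IR) carried the engineered construct, and no unirradiated cells were given CCCP. Against Prol, the effects of irradiation, of CCCP and of losing mitochondria therefore cannot be told apart, and the direct contrast of Sen (IR) + CCCP with Sen (IR) is given for each gene list and for some of the genes.

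Cells that leave the cell cycle for good after DNA damage become senescent. They shut down cell division through the CDK inhibitors and the p53 and RB pathways, and many secrete cytokines, chemokines, proteases and growth factors, which together are called the senescence-associated secretory phenotype (SASP). The inflammatory part of the SASP is driven by NF-κB and, through sensing of misplaced nucleic acids, by interferon signalling, whereas mitochondria supply ATP and citrate, the source of acetyl-CoA, and carry their own small genome. Loss of mitochondrial function is known to engage ATF4, a transcription factor that raises genes of amino acid synthesis and transport.

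The promoters of 6 genes are shown because their genes mark the patterns that follow. IFI6 and CXCL10 are interferon-responsive genes and VCAM1 an adhesion gene, all higher after irradiation and far lower after depletion. IL6 is the best known SASP cytokine, TOP2A a gene of mitosis and ASNS a target of ATF4. Each line gives the 250 bases before the start of the gene in RefSeq on GRCh38.p14, read 5′ to 3′ on the strand of the gene. Capitals mark matches to the interferon-stimulated response element (ISRE, TTTC and TTTC with any 2 bases between) in IFI6, to the ISRE and the NF-κB site in CXCL10 and VCAM1, to the NF-κB site in IL6, to the CCAAT box and the cell cycle homology region (CHR, TTTGAA) in TOP2A and to the ATF4 response element (TGATG, any base, AA) in ASNS, each on either strand. The intervals are chr1:27672193-27672442 on the reverse strand, chr4:76023498-76023747 on the reverse strand, chr1:100719492-100719741 on the forward strand, chr7:22726950-22727199 on the forward strand, chr17:40417897-40418146 on the reverse strand and chr7:97872409-97872658 on the reverse strand.
IFI6: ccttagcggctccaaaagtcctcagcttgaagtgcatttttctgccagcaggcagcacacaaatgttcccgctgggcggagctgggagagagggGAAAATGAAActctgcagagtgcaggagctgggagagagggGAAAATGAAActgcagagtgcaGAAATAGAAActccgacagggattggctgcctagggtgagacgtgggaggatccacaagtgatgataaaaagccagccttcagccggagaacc
CXCL10: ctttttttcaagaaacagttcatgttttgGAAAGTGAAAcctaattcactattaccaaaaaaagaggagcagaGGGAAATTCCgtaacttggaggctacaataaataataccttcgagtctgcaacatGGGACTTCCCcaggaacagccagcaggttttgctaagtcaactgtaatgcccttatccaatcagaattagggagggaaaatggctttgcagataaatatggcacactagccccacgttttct
VCAM1: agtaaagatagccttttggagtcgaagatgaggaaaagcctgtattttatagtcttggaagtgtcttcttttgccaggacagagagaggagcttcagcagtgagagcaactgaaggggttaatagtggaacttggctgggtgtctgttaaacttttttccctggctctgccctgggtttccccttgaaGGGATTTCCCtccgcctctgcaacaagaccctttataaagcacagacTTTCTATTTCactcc
IL6: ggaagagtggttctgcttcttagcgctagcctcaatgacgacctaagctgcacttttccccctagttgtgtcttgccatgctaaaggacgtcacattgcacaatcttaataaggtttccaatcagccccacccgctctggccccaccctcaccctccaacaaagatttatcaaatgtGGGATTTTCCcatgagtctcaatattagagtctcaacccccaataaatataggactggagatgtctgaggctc
TOP2A: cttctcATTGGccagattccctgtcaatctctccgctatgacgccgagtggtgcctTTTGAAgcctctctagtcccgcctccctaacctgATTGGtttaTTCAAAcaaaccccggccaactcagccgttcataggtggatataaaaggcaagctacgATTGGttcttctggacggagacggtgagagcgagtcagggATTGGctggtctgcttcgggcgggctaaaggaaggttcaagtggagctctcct
ASNS: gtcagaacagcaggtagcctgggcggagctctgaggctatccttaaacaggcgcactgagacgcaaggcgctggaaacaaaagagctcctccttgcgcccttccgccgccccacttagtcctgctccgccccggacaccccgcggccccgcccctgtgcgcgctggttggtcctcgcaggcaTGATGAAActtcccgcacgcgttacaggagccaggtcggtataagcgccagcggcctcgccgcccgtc

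The depletion was visible in every library. Counts on the 13 mtDNA genes that code for protein made up 2.62% ± 0.295 (SD, n = 3) of a Prol library. In Sen (IR) + CCCP they made up 0.122% ± 0.0116 (SD, n = 3), 21.4-fold less. The lowest Prol library held 2.31% and the highest depleted library 0.136%, so the groups did not overlap (p = 0.1 by an exact permutation test, two-sided, the lowest value 3 against 3 can give). Levels of single genes are in CPM, counts scaled by TMM to 1000000 per library. MT-CO1, a core subunit of cytochrome c oxidase, stood at 8274, 7139 and 8855 CPM in Prol, 4479.9, 4006 and 6025 CPM in Sen (IR) and 238, 207 and 201 CPM in Sen (IR) + CCCP. All 13 genes were lower than in Prol, with a median log2 fold change of -4.65, against -0.35 in Sen (IR) over Prol. The transfer RNA genes MT-TC and MT-TN were lower as well. MT-TC had at most 3 counts in each depleted library and was at least 157-fold lower, and the log2 fold change of MT-TN was -6.73 ± 0.29 (SE) (adjusted p = 5.89e-15). MT-TC was also at least 2-fold lower in Sen (IR) than in Prol, so not all of its fall was particular to the depleted cells. Part of the reads may stem from copies of mtDNA in the nuclear genome.

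Counts on genes ran from 29267536 to 43733363 per library in Prol, from 28434566 to 46224280 in Sen (IR) and from 24624886 to 35655026 in Sen (IR) + CCCP. Libraries of one group correlated at 0.996 to 0.998 across genes on the log scale, and libraries of different groups at 0.980 at most. Replicate 3 of Sen (IR) stood apart from its group, with a chi-square per gene of 27.7 and 22.2 against replicates 1 and 2, beside 3.30 between those and 2.78 to 7.75 within the other groups. Without it 4505 genes were higher and 5068 lower in Sen (IR) over Prol, and the classes defined below held 703 retained, 242 lost and 645 new rises and 593 retained, 177 lost and 970 new falls. All 10 fibroblast markers were detected, but their summed TPM was 15972 to 18021 in Prol, 10199 to 12243 in Sen (IR) and 5638 to 5845 in Sen (IR) + CCCP. The largest falls were in collagen genes. COL1A1, COL1A2 and COL3A1 had mean TPM of 5835, 4689 and 1521 in Prol and 479, 644 and 225 in the depleted cells. VIM was the only marker with a higher mean in the depleted cells, at 3967 TPM against 3488 in Prol. The part of these markers in the results below was not tested. Endothelial markers summed to 243 to 309 TPM, almost all of it from TEK, while the defining genes PECAM1 and CDH5 stayed at or below 0.156 TPM in these libraries. Epithelial and leukocyte markers summed to at most 5.65 TPM in any library and neuronal markers to 13.5 to 18.9 TPM in Prol and Sen (IR) and to 28.8 to 29.9 TPM in the depleted libraries. In bulk samples, fewer cells of a type and less RNA per cell cannot be told apart.

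Depleted cells differed from proliferating cells in the level of most genes. In Sen (IR) + CCCP over Prol, edgeR's quasi-likelihood test called 5966 genes (35.1%) higher and 5789 (34.1%) lower after Benjamini-Hochberg adjustment, with a threshold of 0.05. At least 2-fold changes were found in 1908 genes (11.2%) upwards and 2202 (13.0%) downwards. All 3 depleted libraries lay above all 3 Prol libraries for 37.6% of the genes and below them for 36.1%. In Sen (IR) over Prol, 26.7% of the genes were higher and 29.9% lower, and 7.34% and 5.70% passed 2-fold. Sen (IR) + CCCP over Sen (IR) gave 34.0% higher and 31.3% lower, with 7.69% and 10.8% past 2-fold. The 50 most abundant genes took 19.2% of the counts in Prol and 11.3% in the depleted cells, and scaling by total counts in place of TMM moved the median log2 fold change of all genes over Prol from 0.03 to 0.38 and the share of higher genes among those called from 50.8% to 72.2%. Directions below are those after TMM, and a list whose median changed sign under total counts is named as such.

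**Figure D1:**
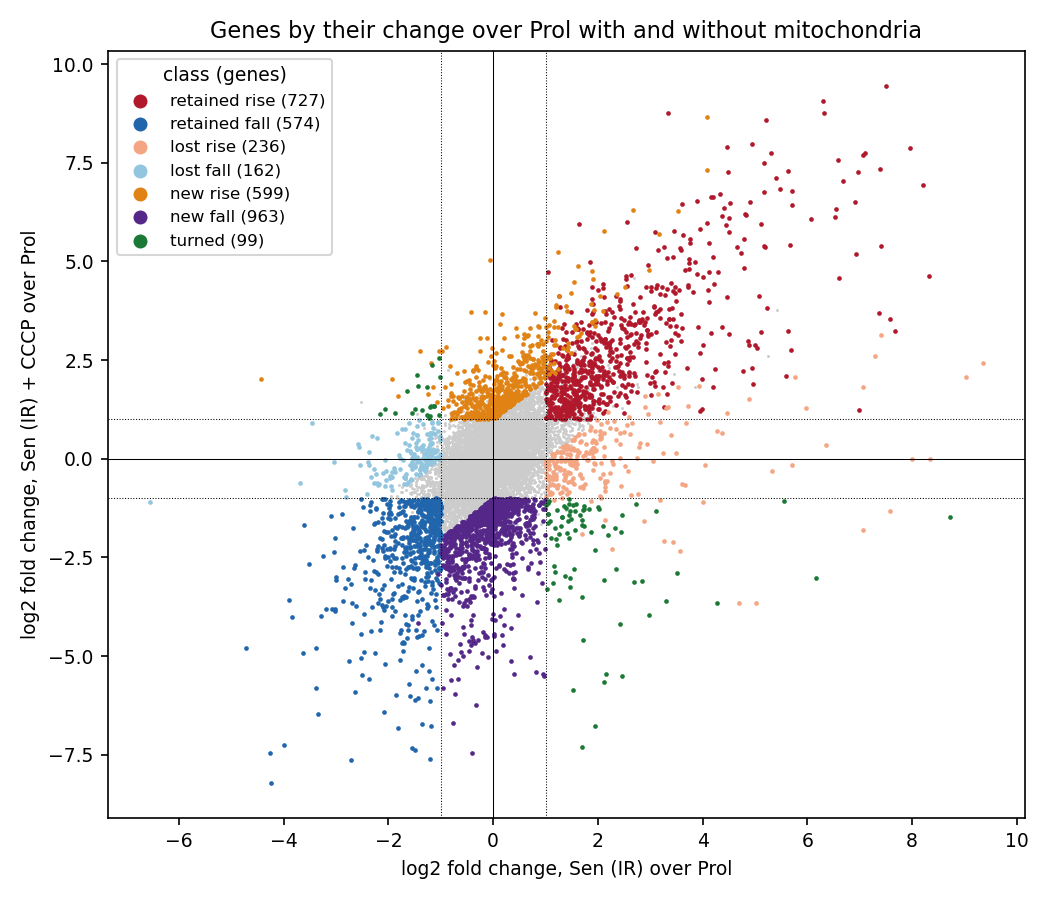
Log2 fold change of each of the 16994 genes tested in Sen (IR) over Prol (horizontal) and in Sen (IR) + CCCP over Prol (vertical), coloured by class. Both axes share the 3 Prol libraries. Retained genes lie along the diagonal, new genes near the vertical axis and lost genes near the horizontal one.

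Genes past 2-fold were then sorted by what the 3 contrasts said together, as a description, since both comparisons over Prol use the same Prol libraries. Of 1247 genes that rose with irradiation, 727 (58.3%) also rose in the depleted cells and were called retained. A further 236 were lost, meaning that they no longer passed 2-fold over Prol and stood at least 2-fold below Sen (IR), 78 were turned to the opposite direction, and 206 fell between these classes. Of 968 genes that fell with irradiation, 574 (59.3%) also fell in the depleted cells, 162 were lost, 21 were turned and 211 fell between. Seen from the depleted side, the shared genes were 38.1% of its 1908 rises and 26.1% of its 2202 falls. New changes, not called past 2-fold in that direction with irradiation alone and at least 2-fold away from Sen (IR), were 599 rises and 963 falls.

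The retained genes were not held at the level of Sen (IR). Among the 727 retained rises, 254 were higher in the depleted cells than in Sen (IR), 86 were lower and 387 did not differ at an adjusted p under 0.05. Their median log2 fold change over Prol was 2.29 (2.06 with the 177 genes at the floor of 3 counts set to their bound), against 1.91 in Sen (IR). Among the 574 retained falls, 282 were lower still than in Sen (IR), 38 were higher and 254 did not pass, with medians of -2.09 and -1.44.

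**Figure D2:**
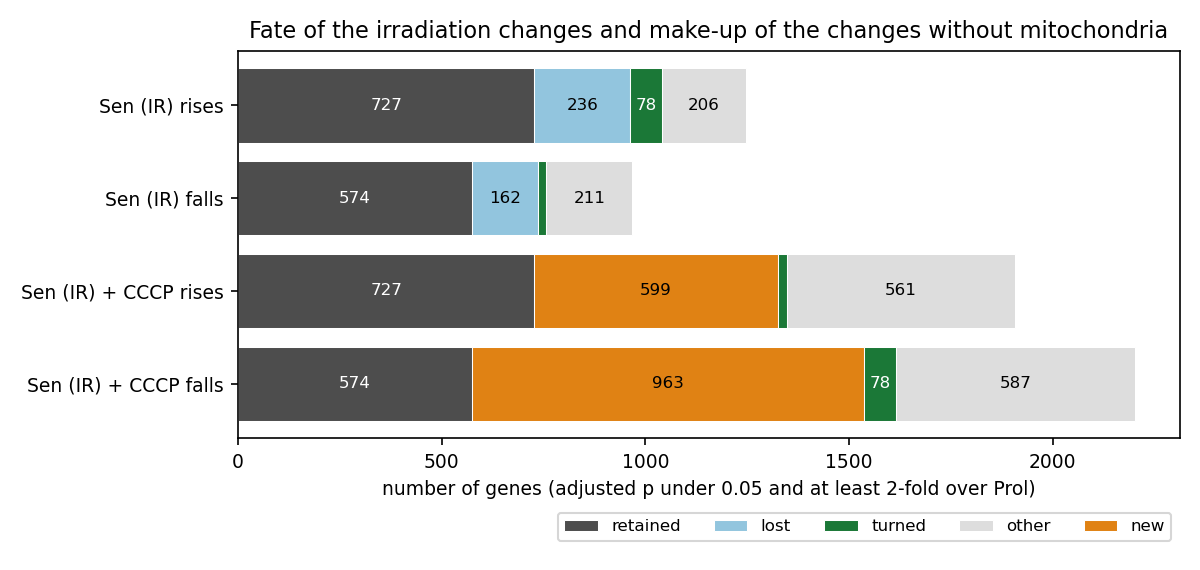
Number of genes (horizontal axis starting at 0) that rose or fell at least 2-fold in each comparison over Prol, split by class. Of the 1247 irradiation rises 727 were retained, and of the 2202 falls of the depleted cells 963 were new.

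Ranked by fold change over Prol, the retained rise was headed by genes that were nearly silent in Prol, which such a ranking favours. LINC01164, a long non-coding RNA gene (ENSG00000189275, chr10:131772383-131790199, reverse strand, GRCh38), stood at 0.329, 0.384 and 0.413 CPM in Sen (IR) and 17.8, 16.9 and 12.6 CPM in Sen (IR) + CCCP, and was at least 154-fold higher than in Prol. Most of that rise was absent from Sen (IR). RGS18, a regulator of G protein signalling (ENSG00000150681, chr1:192158462-192185815, forward strand), read 0.430, 0.629 and 0.598 CPM in Prol, 29.2, 28.9 and 25.9 CPM in Sen (IR) and 85.7, 84.7 and 94.1 CPM in Sen (IR) + CCCP. Its log2 fold change over Prol was 7.29 ± 0.17 (SE) (adjusted p = 3.46e-19), and it was also higher than in Sen (IR) by 1.65 ± 0.10 (SE) on the log2 scale. TACR1, the receptor of substance P, NMRAL2P and AL354719.2 followed with log2 fold changes of 6.53, 6.35 and 5.99. For each of these 5 genes the 3 groups did not overlap, with Prol lowest and the depleted cells highest.

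Some proteases and growth factors of the SASP stayed high. MMP1, interstitial collagenase, read 27, 25.8 and 26.5 CPM in Prol, 517, 526 and 424 CPM in Sen (IR) and 561, 581 and 555 CPM in Sen (IR) + CCCP. Its log2 fold change over Prol was 4.42 ± 0.08 (SE) (adjusted p = 1.81e-20), and the difference from Sen (IR) was 0.21 ± 0.07 (SE) (adjusted p = 0.0121). MMP3, stromelysin, read 2.19, 2.15 and 2.13 CPM in Prol, 73.8, 76.3 and 69.2 CPM in Sen (IR) and 37.9, 39.5 and 34.9 CPM in Sen (IR) + CCCP. MMP1 was thus slightly higher in the depleted libraries than in those of Sen (IR), whereas MMP3 was between the other groups with a log2 fold change over Prol of 4.12 ± 0.13 (SE) (adjusted p = 8.12e-17). AREG, an EGF receptor ligand, read 3.40, 1.74 and 2.03 CPM in Prol, 6.62, 6.26 and 5.58 CPM in Sen (IR) and 22.8, 21.7 and 20.8 CPM in Sen (IR) + CCCP, with a log2 fold change over Prol of 3.22 ± 0.13 (SE) (adjusted p = 1.47e-15). EREG, a related ligand, and SERPINB2, an inhibitor of urokinase, had log2 fold changes over Prol of 2.62 and 2.86 in the depleted cells and of 2.43 and 3.37 in Sen (IR).

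The list of SASP proteases and growth factors as a whole was split. Of 32 members tested, 12 were higher in the depleted cells than in Prol, near the 35.1% of all genes, and 17 were lower. The median log2 fold change was -0.39 (-0.03 under total counts), against 0.57 in Sen (IR) over Prol. Among the members 8 were retained rises and 5 new falls, and 24 were lower and 6 higher than in Sen (IR). IGFBP3, which binds insulin-like growth factors, was one of the falls, at 4147, 4137 and 4126 CPM in Prol, 6002, 5950.4 and 4487 CPM in Sen (IR) and 509, 554 and 448 CPM in Sen (IR) + CCCP. Its log2 fold change over Prol was -3.04 ± 0.14 (SE) (adjusted p = 2.8e-14), while Sen (IR) stood above Prol.

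Genes of the antioxidant response were retained in part. Of 20 targets of NRF2, its transcription factor, 11 were higher and 5 lower, beside 35.1% and 34.1% of all genes. The median was 0.23 (0.59 under total counts) against 0.72 in Sen (IR), and 6 were retained rises. Against Sen (IR), 6 were higher, near the 34.0% of all genes, and 10 lower, beside 31.3%. NQO1, a quinone reductase, read 49.9, 47.7 and 50.7 CPM in Prol, 163, 163 and 149 CPM in Sen (IR) and 229, 242 and 251 CPM in Sen (IR) + CCCP, with a log2 fold change over Prol of 2.28 ± 0.06 (SE) (adjusted p = 3.34e-18). OSGIN1 had a log2 fold change of 3.13 ± 0.14 (SE) (adjusted p = 1.4e-14), and AKR1B10, at most 2 counts in each Prol library, was at least 11.5-fold higher. SQSTM1, the autophagy receptor p62, read 191, 202 and 188 CPM in Prol, 657, 662 and 598 CPM in Sen (IR) and 639, 658 and 617 CPM in Sen (IR) + CCCP, and its difference from Sen (IR) was -0.00 ± 0.05 (SE) on the log2 scale (adjusted p = 0.967).

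Interferon-stimulated genes moved the other way. None of the 36 tested was higher in the depleted cells than in Prol and 30 were lower, against 22 higher and 1 lower in Sen (IR) over Prol. All 36 were lower in Sen (IR) + CCCP than in Sen (IR). The median log2 fold change over Prol was -1.98 in the depleted cells and 0.86 in Sen (IR), and under total counts the depleted count was again 0 higher and 30 lower. By class 11 members were turned, 16 were new falls and 4 were lost rises.

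IFI6, an interferon-induced inhibitor of apoptosis (ENSG00000126709, chr1:27666064-27672212, reverse strand), read 65.2, 75.2 and 72.2 CPM in Prol, 257, 258 and 184 CPM in Sen (IR) and 2.87, 2.60 and 3.52 CPM in Sen (IR) + CCCP. Its log2 fold change over Prol was -4.58 ± 0.39 (SE) in the depleted cells (adjusted p = 6.38e-10) and 1.72 ± 0.28 (SE) in Sen (IR) (adjusted p = 2.09e-05). OAS2, which makes the activator of RNase L, read 8.37, 7.77 and 9.10 CPM in Prol, 33.7, 36 and 41.1 CPM in Sen (IR) and 0.167, 0.126 and 0.218 CPM in Sen (IR) + CCCP, with a log2 fold change over Prol of -5.65 ± 1.08 (SE) (adjusted p = 7.67e-05). For both genes every depleted library was below every Prol library and every Sen (IR) library above. MX1, a GTPase that restricts viruses, and IFI44 were turned in the same way, with log2 fold changes over Prol of -3.50 and -3.30 in the depleted cells. BST2, tetherin, and OAS1 had at most 2 counts in any depleted library and were at least 23.8-fold lower and at least 40.6-fold lower than in Prol. IFI27 was a new fall, with a log2 fold change of -5.51 ± 0.79 (SE) (adjusted p = 1.88e-06). RSAD2, viperin, was a lost rise at 0.704, 0.666 and 0.650 CPM in Prol, 6.67, 6.60 and 6.13 CPM in Sen (IR) and 0.111, 0.177 and 0.181 CPM in Sen (IR) + CCCP, and its difference of -2.08 ± 1.46 (SE) from Prol did not pass (adjusted p = 0.206 by edgeR), but passed with DESeq2's Wald test (adjusted p = 0.000752), with no filter on low counts (adjusted p = 3.52e-08) and with the 9 libraries alone (adjusted p = 1.69e-05).

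**Figure D3:**
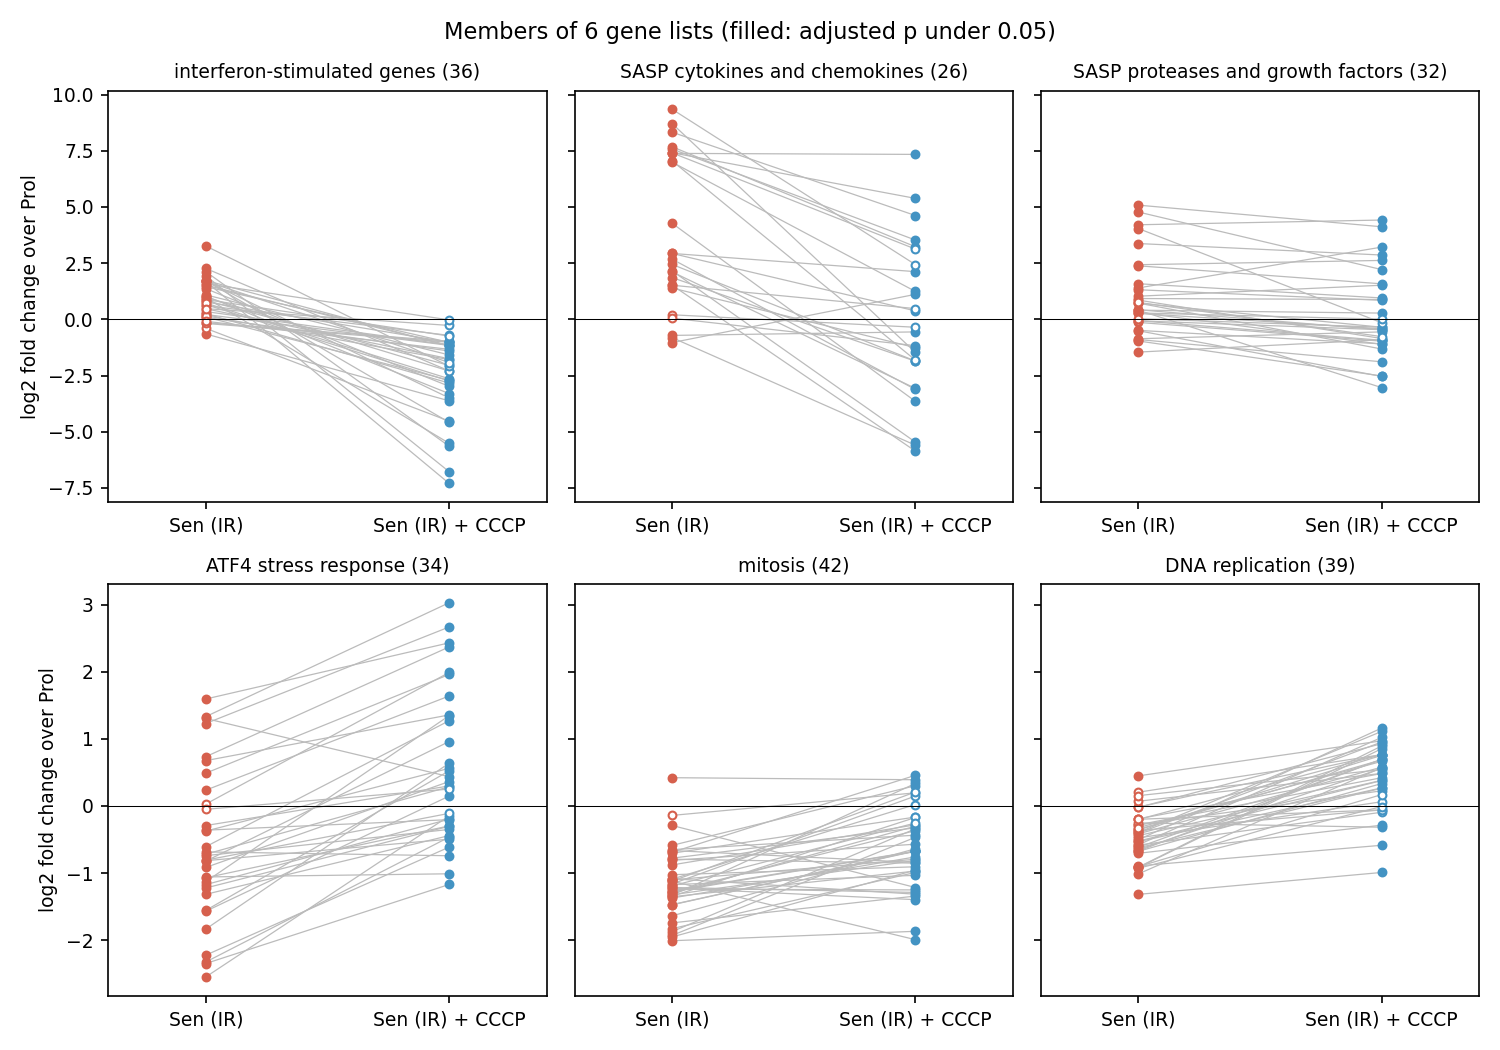
Log2 fold change over Prol of each member of 6 gene lists in Sen (IR) and in Sen (IR) + CCCP, joined by a line, with filled points at an adjusted p under 0.05. The vertical scale is shared within a row. None of the interferon-stimulated genes is higher than Prol after depletion, and 36 of 39 DNA replication genes are higher in the depleted cells than in Sen (IR).

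Cytokines and chemokines of the SASP lost most of their rise, and several ended below proliferating cells. In Sen (IR), 21 of 26 members tested were higher than in Prol, with a median log2 fold change of 2.81. In the depleted cells 9 were higher, near the 35.1% of all genes, and 12 lower, with a median of -0.45 (-0.10 under total counts). Against Sen (IR), 21 were lower. Of these members 10 were turned, 9 of them downwards, 7 were retained rises, 4 lost rises and 2 new falls. Some of these calls rest on few counts. In Prol or in the depleted cells 6 members stayed at or below 3 counts in each library, and IL33, a retained rise, had at most 24 counts in a depleted library. IL6 read 65.2, 64.6 and 67.6 CPM in Prol, 364, 384 and 327 CPM in Sen (IR) and 18.6, 18 and 17.9 CPM in Sen (IR) + CCCP. Over Prol, the log2 fold change was -1.85 ± 0.12 (SE) after depletion (adjusted p = 6.81e-12) and 2.44 ± 0.11 (SE) in Sen (IR). CXCL8, a neutrophil chemokine, read 5.40, 5.63 and 5.92 CPM in Prol, 626, 703 and 843 CPM in Sen (IR) and 13.9, 13.8 and 12.3 CPM in Sen (IR) + CCCP. It stayed above Prol by 1.24 ± 0.15 (SE) on the log2 scale (adjusted p = 2.36e-07) and so counted as retained, but was -5.75 ± 0.14 (SE) from Sen (IR). Both groups of irradiated libraries were separate from Prol for these genes, IL6 on opposite sides.

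CCL2, which recruits monocytes, read 37, 36.8 and 38.4 CPM in Prol, 239, 266 and 214 CPM in Sen (IR) and 4.49, 3.74 and 4.79 CPM in Sen (IR) + CCCP, with a log2 fold change over Prol of -3.12 ± 0.20 (SE) (adjusted p = 6.92e-12). IL1A, an upstream cytokine of the SASP, read 2.74, 2.00 and 2.23 CPM in Prol, 7.70, 10.4 and 7.34 CPM in Sen (IR) and 0.474, 0.606 and 0.871 CPM in Sen (IR) + CCCP, with a log2 fold change over Prol of -1.86 ± 0.24 (SE) (adjusted p = 5.18e-07). IL1B was a lost rise at 3.99, 4.07 and 4.05 CPM in Prol, 30, 31.9 and 30.9 CPM in Sen (IR) and 5.41, 4.65 and 5.81 CPM in Sen (IR) + CCCP. Its log2 fold change over Prol of 0.38 ± 0.14 (SE) passed (adjusted p = 0.0237) but did not pass when any of Prol replicate 1, Prol replicate 3, Sen (IR) + CCCP replicate 1 or Sen (IR) + CCCP replicate 3 was left out, with values of 0.30 to 0.38.

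CXCL10, CXCL11 and CCL5, chemokines that recruit T cells, were turned downwards. CXCL10 (ENSG00000169245, chr4:76021118-76023497, reverse strand) read 16.6, 16 and 18.6 CPM in Prol, 341, 343 and 313 CPM in Sen (IR) and 1.23, 1.29 and 1.63 CPM in Sen (IR) + CCCP, with a log2 fold change over Prol of -3.65 ± 0.64 (SE) (adjusted p = 2.82e-05). CXCL11 was at least 25.8-fold lower than in Prol and CCL5 at least 2.38-fold lower, with no count of CCL5 in any depleted library. IL32, an inflammatory cytokine, was already lower in Sen (IR) and read 56.7, 55.1 and 57.1 CPM in Prol, 31.7, 35.1 and 29.6 CPM in Sen (IR) and 1.23, 1.06 and 1.20 CPM in Sen (IR) + CCCP. CCL20 and CXCL6, which draw lymphocytes and neutrophils, were nearly absent from Prol and the depleted cells. CCL20 read 0.0391, 0.0370 and 0 CPM in Prol, 14.8, 19.9 and 16 CPM in Sen (IR) and 0.111, 0.202 and 0.0726 CPM in Sen (IR) + CCCP, and CXCL6 0.0782, 0 and 0.0520 CPM in Prol, 7.30, 5.22 and 6.41 CPM in Sen (IR) and 0, 0 and 0.0363 CPM in Sen (IR) + CCCP. CXCL1 was turned from 141, 152 and 127 CPM in Sen (IR) to 0.167, 0.151 and 0 CPM, near the level that 3 counts allow, while its neighbour in the family CXCL5 stayed at 7.94, 7.15 and 7.48 CPM, against 0.743, 0.629 and 0.598 CPM in Prol.

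Not every cytokine lost its rise. IL33, an alarmin of the IL-1 family, had no count in any Prol library, 0.775, 0.614 and 0.482 CPM in Sen (IR) and 0.669, 0.530 and 0.653 CPM in Sen (IR) + CCCP, at least 6.05-fold higher than in Prol. IL11, a cytokine of the IL-6 family, was turned upwards, at 20.5, 21.5 and 21.3 CPM in Prol, 9.98, 10.8 and 10.2 CPM in Sen (IR) and 46.5, 46.8 and 43.6 CPM in Sen (IR) + CCCP. This was a log2 fold change over Prol of 1.11 ± 0.07 (SE) in the depleted cells (adjusted p = 3.96e-12) and -1.03 ± 0.08 (SE) in Sen (IR) (adjusted p = 2.82e-10).

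NF-κB target genes other than the cytokines fell as a list too. Of 21, 17 were lower and 2 higher than in Prol, with a median of -1.10, against 4 lower and 11 higher and a median of 0.33 in Sen (IR). All 21 were lower than in Sen (IR). ICAM1, an adhesion molecule for leukocytes (ENSG00000090339, chr19:10271093-10286615, forward strand), read 265, 283 and 268 CPM in Prol, 463, 479.8 and 388 CPM in Sen (IR) and 7.80, 8.10 and 9.07 CPM in Sen (IR) + CCCP. The log2 fold change over Prol was -5.04 ± 0.16 (SE) (adjusted p = 3.54e-17). VCAM1, another adhesion molecule, read 55.6, 57.8 and 58.2 CPM in Prol, 345, 329 and 273 CPM in Sen (IR) and 1.11, 1.14 and 1.60 CPM in Sen (IR) + CCCP, with a log2 fold change over Prol of -5.51 ± 0.33 (SE) (adjusted p = 2.08e-12). TNFAIP2 had a log2 fold change of -2.27 ± 0.12 (SE) (adjusted p = 2.26e-13). The 2 higher members were TNFAIP6, a hyaluronan-binding protein (3.34 ± 0.31 (SE), adjusted p = 2.75e-09), and PTGS2, cyclooxygenase-2 (1.31 ± 0.12 (SE), adjusted p = 1.19e-09).

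Genes of MHC class I presentation fell in the depleted cells although irradiation alone had left their median near Prol. Of 15, 13 were lower and 1, TAP2, was higher, with a median of -1.47, against 4 higher, 3 lower and a median of -0.03 in Sen (IR), and all 15 were lower than in Sen (IR). HLA-B, a class I heavy chain, read 393, 402 and 389.8 CPM in Prol, 496, 460.0 and 359 CPM in Sen (IR) and 93.5, 94.4 and 97 CPM in Sen (IR) + CCCP. Relative to Prol, the log2 fold change was -2.06 ± 0.12 (SE) (adjusted p = 1.43e-12), and those of HLA-F and the peptide-trimming enzyme ERAP1 were -2.06 and -1.80. Class I genes are near-identical copies and reads that matched several places were not counted, so their levels are uncertain.

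Matrix and contractile genes of fibroblasts were lower almost throughout. Of 29 extracellular matrix genes, 28 were lower and none higher than in Prol (26 lower and 1 higher under total counts), with a median of -2.52. In Sen (IR) 21 were lower and 2 higher, with a median of -0.70, so that 9 members were retained falls and 15 new falls. Against Sen (IR), 25 were lower and 3 higher. COL1A1, a chain of type I collagen (ENSG00000108821, chr17:50184101-50201632, reverse strand), read 14921, 16619 and 14022 CPM in Prol, 7229, 7304 and 5860.0 CPM in Sen (IR) and 903, 828 and 901 CPM in Sen (IR) + CCCP. In log2 terms the difference from Prol was -4.11 ± 0.10 (SE) after depletion (adjusted p = 5.13e-19) and -1.16 ± 0.09 (SE) in Sen (IR). POSTN, periostin, read 16.3, 16.3 and 15.7 CPM in Prol, 18.8, 18.1 and 16.9 CPM in Sen (IR) and 1.28, 1.24 and 2.18 CPM in Sen (IR) + CCCP, with a log2 fold change over Prol of -3.40 ± 0.22 (SE) (adjusted p = 6.1e-12). Sen (IR) did not pass for POSTN (adjusted p = 0.432). COL11A1 had a log2 fold change of -3.57, and ELN, elastin, at most 2 counts in any depleted library, was at least 13.5-fold lower. VCAN, a large proteoglycan, was the 1 member not called, at 376, 383 and 357 CPM in Prol, 135, 129 and 149 CPM in Sen (IR) and 358, 377 and 368 CPM in Sen (IR) + CCCP: it fell with irradiation alone, and the depleted libraries overlapped those of Prol. Type I collagen genes are also among the fibroblast markers given above.

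All 16 contractile genes and targets of YAP were lower than in Prol, with a median of -2.26 (-1.91 under total counts), against 9 lower, 1 higher and a median of -0.34 in Sen (IR). All 16 were also lower than in Sen (IR). ACTA2, smooth muscle actin (ENSG00000107796, chr10:88935074-88991339, reverse strand), read 845, 852 and 835 CPM in Prol, 467, 466 and 417 CPM in Sen (IR) and 35.8, 38.8 and 41.3 CPM in Sen (IR) + CCCP. Over Prol, the log2 fold change was -4.45 ± 0.17 (SE) (adjusted p = 6.39e-16). ACTG2, another actin, read 992, 1024 and 989 CPM in Prol, 667, 658 and 561 CPM in Sen (IR) and 21.9, 20.3 and 20.9 CPM in Sen (IR) + CCCP, with a log2 fold change of -5.57 ± 0.24 (SE) (adjusted p = 7.05e-15). LMOD1, which nucleates actin filaments, and CNN1, calponin, had log2 fold changes of -5.81 and -3.96. For each of these 4 genes the depleted libraries lay below both other groups.

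Most genes of sterol and fatty acid synthesis were lower after depletion. Of 29 genes, 21 were lower and 4 higher (17 and 8 under total counts), with a median of -0.80, against 8 lower, 11 higher and a median of 0.11 in Sen (IR), and 26 were lower and 1 higher than in Sen (IR). STARD4, a carrier of cholesterol, read 135, 135 and 139.9 CPM in Prol, 74.5, 73 and 77.8 CPM in Sen (IR) and 22.7, 23.1 and 21.2 CPM in Sen (IR) + CCCP, with a log2 fold change over Prol of -2.61 ± 0.12 (SE) (adjusted p = 2.66e-14). SREBF2, the transcription factor of the sterol genes, read 114, 125 and 107 CPM in Prol, 87, 93.7 and 83.3 CPM in Sen (IR) and 35.5, 36.6 and 35 CPM in Sen (IR) + CCCP, with a log2 fold change of -1.69 ± 0.06 (SE) (adjusted p = 6.31e-16). INSIG1, which holds back the SREBPs, had -1.74 ± 0.11 (SE) (adjusted p = 3.12e-12), and SCD, a fatty acid desaturase that fell with irradiation as well, -2.38 ± 0.08 (SE) (adjusted p = 9.32e-17).

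Other falls led their classes. PTGIS, prostacyclin synthase, was a retained fall at 25.5, 25.1 and 22.3 CPM in Prol, 1.46, 1.30 and 1.03 CPM in Sen (IR) and 0.0836, 0.0252 and 0.145 CPM in Sen (IR) + CCCP, with a log2 fold change over Prol of -8.22 ± 0.26 (SE) (adjusted p = 4.34e-16). TNFSF10, the death ligand TRAIL, and the neighbouring genes TMEM176A and TMEM176B were retained falls with log2 fold changes of -6.78, -6.07 and -6.12. PSG1, a pregnancy-specific glycoprotein, was a new fall of -5.97. It belongs to a family of near-identical genes, so its value is uncertain.

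The new rises were led by ID1 and ID3, inhibitors of basic helix-loop-helix factors. ID1 (ENSG00000125968, chr20:31605283-31606515, forward strand) read 1.84, 2.22 and 1.79 CPM in Prol, 1.13, 1.61 and 1.72 CPM in Sen (IR) and 28.8, 29.9 and 17.3 CPM in Sen (IR) + CCCP. This was a log2 fold change over Prol of 3.72 ± 0.31 (SE) (adjusted p = 4.02e-10), while Sen (IR) over Prol did not pass (adjusted p = 0.45). ID3 read 4.30, 3.41 and 3.66 CPM in Prol, 5.75, 6.37 and 5.61 CPM in Sen (IR) and 36, 35.3 and 26.9 CPM in Sen (IR) + CCCP, with a log2 fold change over Prol of 3.12 ± 0.19 (SE) (adjusted p = 3.3e-12). Replicate 3 of the depleted cells was the lowest of its group for both genes and still above all Prol and Sen (IR) libraries.

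NPC1, which exports cholesterol from lysosomes (ENSG00000141458, chr18:23506184-23586506, reverse strand), read 39, 46.1 and 39.1 CPM in Prol, 77.3, 84.3 and 70.8 CPM in Sen (IR) and 329, 352 and 311 CPM in Sen (IR) + CCCP. The log2 fold change over Prol was 3.00 ± 0.08 (SE) (adjusted p = 8.55e-18), and that over Sen (IR) was 2.10 ± 0.08 (SE). CLGN, a chaperone of the endoplasmic reticulum, WHRN, a scaffold protein, and KLF4, a transcription factor, had log2 fold changes over Prol of 2.90, 2.89 and 2.85 and of 0.96, 0.84 and 0.70 in Sen (IR) over Prol. NPC1 was the highest of its list. Of 27 lysosome genes 13 were higher and 13 lower, with a median of -0.02 (0.33 under total counts, a change of sign), and 21 were lower and 3 higher than in Sen (IR). CTSK, cathepsin K, fell by 2.12 on the log2 scale (adjusted p = 6.43e-14) and TFEB, a transcription factor of lysosome genes, by 1.36 (adjusted p = 1.16e-05).

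**Figure D4:**
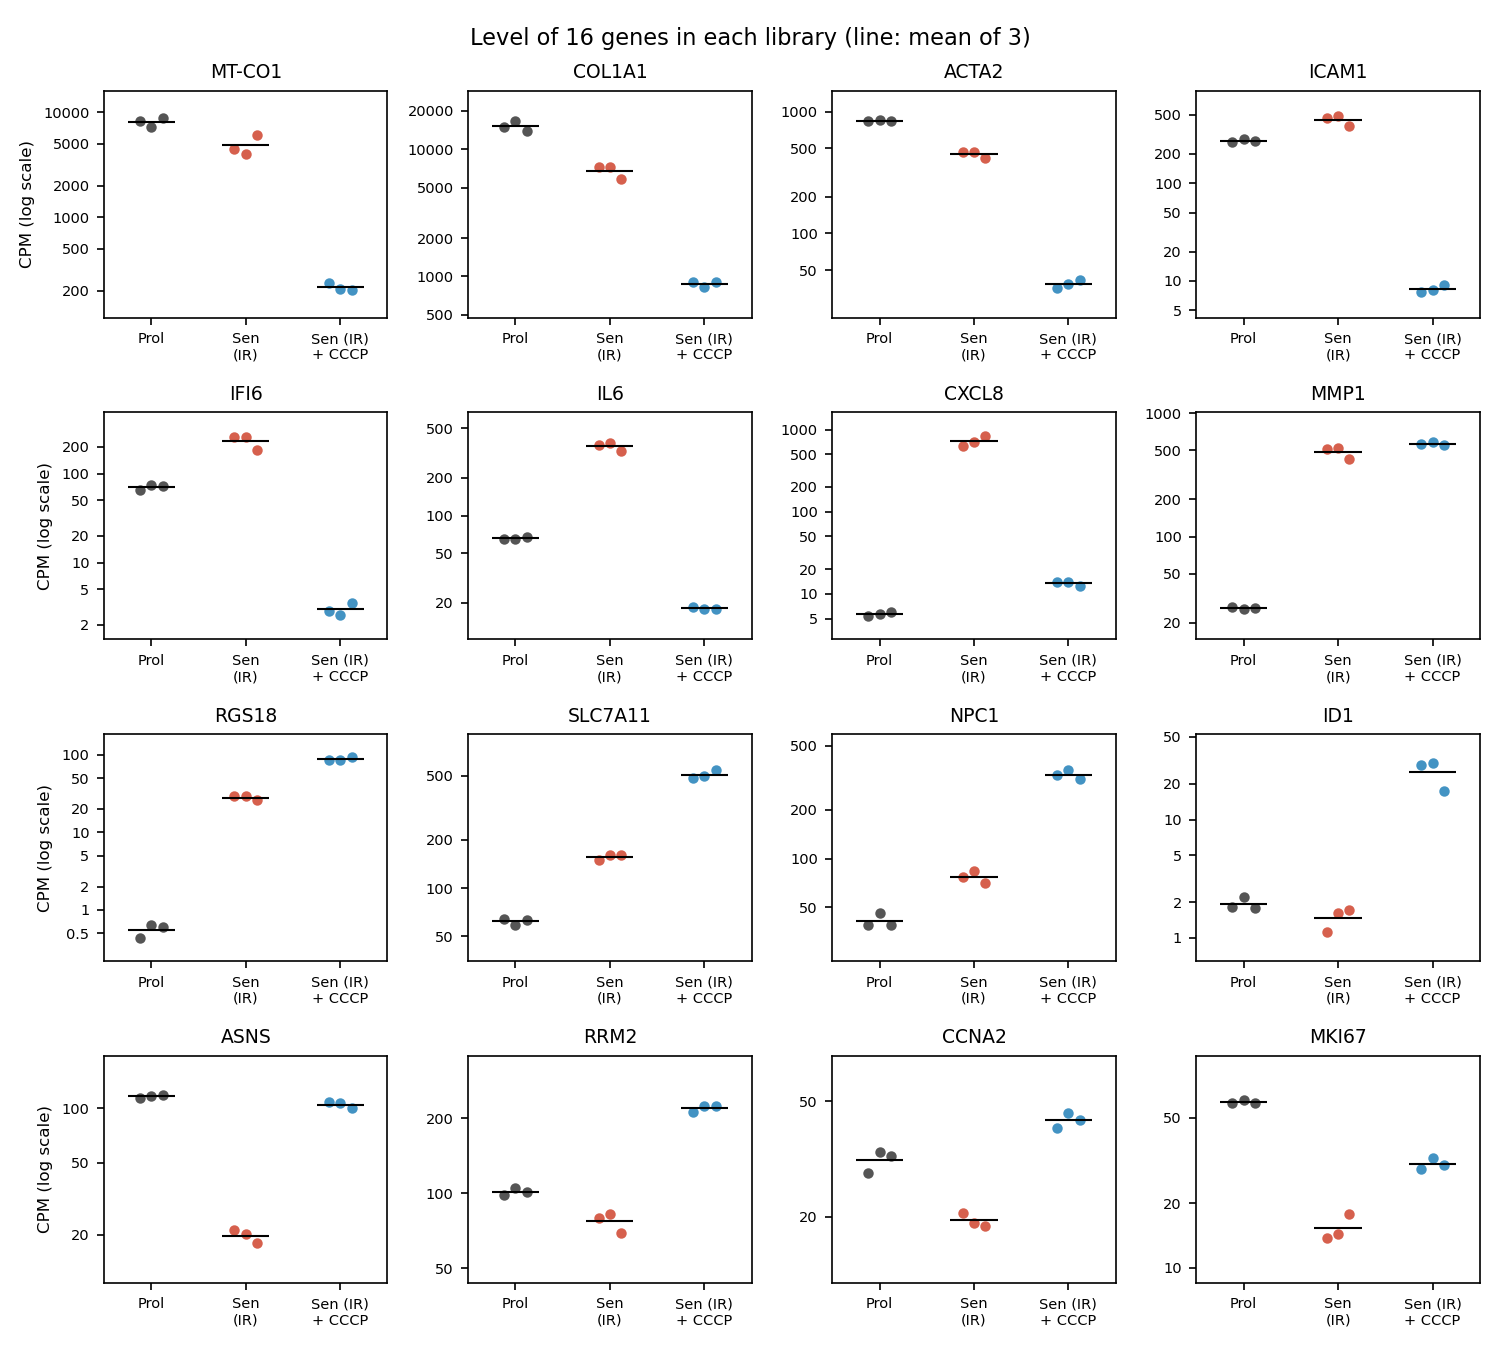
TMM-scaled counts (CPM, log scales that differ by panel) of 16 genes in each of the 9 libraries, with a line at the mean of 3. Depleted libraries are below both other groups for COL1A1, ACTA2, ICAM1, IFI6 and IL6, above both for RGS18, SLC7A11, NPC1, ID1, RRM2 and CCNA2, and between them for CXCL8 and MKI67.

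Genes of the ATF4 stress response, most of which were low in Sen (IR), stood higher in the depleted cells. In Sen (IR) 24 of 34 were lower and 8 higher than in Prol, with a median of -0.77. In the depleted cells 19 were higher and 13 lower than in Prol, with a median of 0.29 (0.65 under total counts), and 31 of the 34 were higher than in Sen (IR). By class 6 members were lost falls, 5 new rises, 3 retained rises, 2 retained falls and 1 turned, and the others were in none of the classes. SLC7A11, the cystine transporter (ENSG00000151012, chr4:138164097-138242349, reverse strand), read 64.5, 58.9 and 63 CPM in Prol, 149, 161 and 160.3 CPM in Sen (IR) and 483, 499.6 and 542 CPM in Sen (IR) + CCCP, and its log2 fold change over Prol was 3.03 ± 0.07 (SE) (adjusted p = 7.01e-19). ATF3, a partner factor, had 2.67 ± 0.11 (SE) (adjusted p = 1.73e-15), ATF5, a factor of the mitochondrial stress response, 2.37 ± 0.09 (SE) (adjusted p = 1.79e-15), and GDF15, a secreted stress hormone, 2.43 ± 0.10 (SE) (adjusted p = 3.42e-15). All 4 had risen with irradiation too. ATF4 itself read 252, 244 and 261 CPM in Prol, 173, 169 and 155 CPM in Sen (IR) and 596, 613 and 621 CPM in Sen (IR) + CCCP.

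The lost falls included enzymes of amino acid synthesis. ASNS, asparagine synthetase, read 113, 117 and 118 CPM in Prol, 21.2, 20.3 and 17.9 CPM in Sen (IR) and 108, 106 and 100.3 CPM in Sen (IR) + CCCP. Its log2 fold change was -2.55 ± 0.06 (SE) in Sen (IR) over Prol and 2.40 ± 0.06 (SE) in the depleted cells over Sen (IR), which left -0.15 ± 0.05 (SE) over Prol (adjusted p = 0.018), or 0.21 under total counts. PHGDH, the first enzyme of serine synthesis, read 59.8, 63.4 and 63.7 CPM in Prol, 12.9, 13.6 and 10.7 CPM in Sen (IR) and 45.4, 46.7 and 43.3 CPM in Sen (IR) + CCCP. PSAT1, the next enzyme of that pathway, read 147, 144 and 141 CPM in Prol, 45.1, 41.4 and 34.2 CPM in Sen (IR) and 226, 234 and 213 CPM in Sen (IR) + CCCP. Both were at least 2-fold below Prol in Sen (IR) alone, and in the depleted cells PHGDH had a log2 fold change of -0.46 ± 0.07 (SE) (-0.11 and not called under total counts) and PSAT1 of 0.64 ± 0.07 (SE) over Prol. IGF2, a growth factor, was a lost fall at 880.4, 909 and 891 CPM in Prol, 157, 169.5 and 177 CPM in Sen (IR) and 469, 496 and 474 CPM in Sen (IR) + CCCP, and LZTS1, ADM2, a secreted peptide, and ADARB1, an RNA-editing enzyme, were others, with log2 fold changes over Sen (IR) of 2.03, 2.55 and 1.86.

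Cell cycle genes separated by phase. Genes of DNA replication were higher than in Prol for 29 of 39 and lower for 4, with a median of 0.54 (0.90 under total counts), against 30 lower, 1 higher and a median of -0.44 in Sen (IR). Against Sen (IR), 36 of 39 were higher in the depleted cells. RRM2, a subunit of ribonucleotide reductase (ENSG00000171848, chr2:10120698-10211725, forward strand), read 98.3, 104 and 101 CPM in Prol, 79.5, 82.2 and 69.5 CPM in Sen (IR) and 211, 224 and 223 CPM in Sen (IR) + CCCP. Relative to Prol, the log2 fold change was 1.11 ± 0.11 (SE) (adjusted p = 5.07e-09). ORC1, a subunit of the origin recognition complex, and RFC3, a clamp loader subunit, had 1.16 ± 0.15 (SE) (adjusted p = 3.34e-07) and 1.02 ± 0.09 (SE) (adjusted p = 8.41e-10). TK1, thymidine kinase, was the lowest of the 4 lower genes, with -0.99 ± 0.13 (SE) (adjusted p = 8.69e-07).

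Mitotic genes stayed below proliferating cells. Of 42, 32 were lower and 5 higher than in Prol (22 and 9 under total counts), with a median of -0.67, against 40 lower, 1 higher and a median of -1.20 in Sen (IR). Against Sen (IR), 26 were higher and 3 lower. KIF20A, a kinesin of cytokinesis, read 23.9, 26.2 and 23.6 CPM in Prol, 10.6, 12.5 and 11 CPM in Sen (IR) and 5.91, 6.51 and 6.06 CPM in Sen (IR) + CCCP, and its log2 fold change over Prol was -1.99 ± 0.09 (SE) (adjusted p = 1.49e-14). PLK1, a mitotic kinase, had -1.40 ± 0.15 (SE) (adjusted p = 3.09e-08), ASPM, a spindle protein, -1.87 ± 0.12 (SE) (adjusted p = 5.51e-12), and CENPA, the centromeric histone, -1.34 ± 0.20 (SE) (adjusted p = 4.21e-06). These 4 genes were retained falls, and KIF20A was lower than in Sen (IR) as well. MKI67, the proliferation marker, read 58.8, 60.2 and 58.3 CPM in Prol, 13.8, 14.4 and 17.8 CPM in Sen (IR) and 28.9, 32.4 and 30 CPM in Sen (IR) + CCCP. TOP2A, topoisomerase IIα, read 171, 171 and 169.8 CPM in Prol, 55.5, 56.4 and 52.4 CPM in Sen (IR) and 99.6, 114 and 115 CPM in Sen (IR) + CCCP. Both were between the other groups, with log2 fold changes over Prol of -0.96 ± 0.11 (SE) (adjusted p = 5.29e-08) and -0.64 ± 0.09 (SE) (adjusted p = 3.52e-06). CCNA2, the cyclin of S phase and early mitosis, was 1 of the 5 higher genes. It read 28.2, 33.3 and 32.5 CPM in Prol, 20.6, 19.1 and 18.6 CPM in Sen (IR) and 40.4, 45.7 and 43.2 CPM in Sen (IR) + CCCP, with a log2 fold change over Prol of 0.46 ± 0.10 (SE) (adjusted p = 0.000292). CCNB1, the main cyclin of mitosis, was on the opposite side of Prol, at 18.9, 17.5 and 17 CPM in the depleted cells against 42.4, 43.3 and 38.6 CPM in Prol.

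Markers of arrest differed less. CDKN1A, the p53-induced inhibitor p21, read 690.0, 725 and 679.7 CPM in Prol, 982, 1041 and 950.0 CPM in Sen (IR) and 1104, 1131 and 1066 CPM in Sen (IR) + CCCP. In log2 terms the difference from Prol was 0.66 ± 0.05 (SE) (adjusted p = 1.14e-10) in the depleted cells and 0.50 ± 0.05 (SE) (adjusted p = 1.76e-08) in Sen (IR). CDKN2A, the locus of p16 and ARF, read 4.69, 3.67 and 4.70 CPM in Prol, 6.39, 7.41 and 6.17 CPM in Sen (IR) and 6.77, 6.69 and 5.88 CPM in Sen (IR) + CCCP. CDKN2A was above Prol by 0.57 ± 0.11 (SE) (adjusted p = 7.41e-05), and its difference from Sen (IR) was -0.03 ± 0.10 (SE) (adjusted p = 0.789). CDKN2B rose by 0.74 ± 0.05 (SE) (adjusted p = 6.41e-11) and CDKN2C, another inhibitor, had -1.23 ± 0.16 (SE) (adjusted p = 7.9e-07). RBL2, a relative of RB, had -1.17 ± 0.06 (SE) (adjusted p = 4.79e-14). LMNB1, a lamin whose fall marks senescence, read 25, 22.6 and 24.5 CPM in Prol, 8.90, 9.02 and 7.65 CPM in Sen (IR) and 11.8, 14.6 and 13.4 CPM in Sen (IR) + CCCP, and its log2 fold change over Prol was -0.86 ± 0.08 (SE) (adjusted p = 6.4e-09), less than the -1.49 ± 0.09 (SE) of Sen (IR). Of the 16 CDK inhibitor and lamina genes 4 were higher and 8 lower, with a median of -0.10 (0.25 under total counts, a change of sign), and 11 were higher and 2 lower than in Sen (IR).

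Targets of p53 were higher for 18 of 32 and lower for 10, with a median of 0.25 against 0.02 in Sen (IR). Under total counts 25 were higher and 5 lower, with a median of 0.61. Against Sen (IR), 18 were higher and 8 lower. Apart from GDF15, the largest differences were CCNG1 (-1.26 ± 0.05 (SE), adjusted p = 5.28e-16), RPS27L (-1.07 ± 0.08 (SE), adjusted p = 5.34e-11) and TRIAP1 (0.94 ± 0.07 (SE), adjusted p = 5.54e-11), the first 2 of them lower than in Prol. Lower members were about as frequent as among all genes (34.1%) and higher members more frequent than among all genes (35.1%).

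Nuclear genes for mitochondrial proteins changed far less than those of mtDNA. Of 75 nuclear genes of the respiratory chain, 43 were lower and 13 higher, with a median of -0.23 that became 0.12 under total counts, so the direction of the list depended on the scaling. Against Sen (IR), 36 were lower and 13 higher. ATP5F1A, the α subunit of ATP synthase, read 400.2, 399 and 411 CPM in Prol, 422, 428 and 356 CPM in Sen (IR) and 202, 208 and 202 CPM in Sen (IR) + CCCP, with a log2 fold change over Prol of -0.98 ± 0.06 (SE) (adjusted p = 1e-12). COX5B, NDUFB1 and NDUFB7, subunits of complexes IV and I, had log2 fold changes of -1.01, -0.91 and -0.91, beside -5.23 for MT-CO1. Only COX5B passed 2-fold among the 75.

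Among genes of mtDNA maintenance and of the mitochondrial ribosome, rises outnumbered falls. None of 15 genes of mtDNA maintenance was lower than in Prol and 11 were higher, with a median of 0.56 (0.92 under total counts) against 0.13 in Sen (IR), and 12 were higher and 1 lower than in Sen (IR). TWNK, the mtDNA helicase, read 6.18, 6.40 and 6.55 CPM in Prol, 7.58, 7.02 and 7.92 CPM in Sen (IR) and 27.5, 26.6 and 27 CPM in Sen (IR) + CCCP, with a log2 fold change over Prol of 2.08 ± 0.08 (SE) (adjusted p = 1.59e-15), and MGME1, an exonuclease of mtDNA, had 0.85 ± 0.06 (SE) (adjusted p = 1.09e-10). PPARGC1A and PPARGC1B, coactivators of mitochondrial biogenesis, were low in all groups. PPARGC1A read 1.84, 1.72 and 2.47 CPM in the depleted cells and was at least 19.7-fold higher than in Prol, and PPARGC1B was at least 4.68-fold higher. Both were retained rises, which had also passed 2-fold in Sen (IR) over Prol. Mitochondrial ribosome genes were higher for 43 of 78 and lower for 12, with a median of 0.27 (0.62 under total counts) against 0.07 in Sen (IR), and 38 were higher and 14 lower than in Sen (IR). MRPS18B and MRPL37 had log2 fold changes of 1.02 ± 0.07 (SE) and 0.98 ± 0.06 (SE), and MRPS24 and MRPS6 of -1.13 ± 0.16 (SE) and -1.0 ± 0.05 (SE). Of 15 mitochondrial chaperones and proteases 5 were higher, near the 35.1% of all genes, and 3 lower, with a median of 0.06. Under total counts 12 were higher and 1 lower, with a median of 0.41, so the counts depended on the scaling. Against Sen (IR), 6 were higher and 6 lower, beside 34.0% and 31.3% of all genes. HSPA9, the mitochondrial HSP70, read 257, 255 and 257 CPM in Prol, 375, 378 and 324 CPM in Sen (IR) and 562, 579.6 and 541 CPM in Sen (IR) + CCCP, with 1.13 ± 0.05 (SE) (adjusted p = 2.58e-14), its co-chaperone DNAJA3 had 0.95 ± 0.06 (SE) (adjusted p = 1.33e-12), HSPD1 0.47 ± 0.05 (SE) (adjusted p = 3.34e-08) and the protease PMPCB -0.52 ± 0.06 (SE) (adjusted p = 8.15e-08).

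Cytosolic ribosome genes were lower almost without exception. Of 77, 73 were lower and none higher than in Prol, with a median of -0.97 (67 lower, 5 higher and -0.61 under total counts), and in Sen (IR) 74 were lower, with a median of -0.70. The 4 that did not pass were RPLP0, RPL17, RPL23A and RPL41. RPS27 read 218, 178 and 209 CPM in Prol, 118, 144 and 99.2 CPM in Sen (IR) and 46.6, 46.3 and 53.6 CPM in Sen (IR) + CCCP, with a log2 fold change over Prol of -2.05 ± 0.11 (SE) (adjusted p = 2.64e-13), and RPL3 read 883, 887 and 885 CPM in Prol, 460.3, 466 and 456 CPM in Sen (IR) and 255, 250.4 and 260.2 CPM in Sen (IR) + CCCP, with -1.79 ± 0.04 (SE) (adjusted p = 3.46e-19). RPL12 and RPL10A had -1.87 and -1.64. Most of this fall was already there in Sen (IR): 44 were lower and 10 higher in the depleted cells than in Sen (IR), with a median of -0.24. Ribosomal protein genes have many processed copies, so reads that matched several places may be missing.

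Central carbon metabolism showed no common direction over Prol. Of 11 acetyl-CoA supply genes 6 were lower and 3 higher, with a median of -0.35 (0.01 under total counts, a change of sign). In Sen (IR) over Prol 6 were higher and 2 lower, with a median of 0.21. Against Sen (IR), 9 were lower in the depleted cells and 0 higher, with a median of -0.37. ACSS2, which makes acetyl-CoA from acetate, read 32.9, 32.9 and 33.9 CPM in Prol, 32, 31.6 and 28.4 CPM in Sen (IR) and 16.3, 14.5 and 14.7 CPM in Sen (IR) + CCCP, with a log2 fold change over Prol of -1.13 ± 0.07 (SE) (adjusted p = 8.23e-12). ACLY, which makes it from citrate, read 357, 365 and 341 CPM in Prol, 438, 454 and 369.8 CPM in Sen (IR) and 339, 363 and 339 CPM in Sen (IR) + CCCP, and its difference of -0.03 ± 0.07 (SE) did not pass (adjusted p = 0.677). SLC25A1, the citrate carrier, had -0.58 ± 0.06 (SE) (adjusted p = 3.74e-09), PDHB, of the pyruvate dehydrogenase complex, -1.0 ± 0.06 (SE) (adjusted p = 4.16e-13), CRAT -0.78 ± 0.08 (SE) (adjusted p = 2.93e-08) and ACAT2 -0.73 ± 0.06 (SE) (adjusted p = 1.04e-09). Under total counts ACLY stood at 0.32.

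Of 18 TCA cycle genes 9 were lower and 6 higher, the latter near the 35.1% of all genes. The median of the list was -0.08 (0.28 under total counts, a change of sign). Against Sen (IR), 7 were lower and 5 higher, beside 31.3% and 34.0% of all genes. IDH2, the NADP-dependent isocitrate dehydrogenase, read 49.2, 47.9 and 46.8 CPM in Prol, 25, 24.9 and 23.9 CPM in Sen (IR) and 9.45, 10 and 8.20 CPM in Sen (IR) + CCCP, with -2.37 ± 0.10 (SE) over Prol (adjusted p = 2.36e-15), while IDH3B, of the NAD-dependent enzyme, had 0.98 ± 0.07 (SE) (adjusted p = 9.08e-11), and FH and OGDH had -0.75 and -0.74. Glycolysis genes were higher for 9 of 23 and lower for 8, near the 35.1% and 34.1% of all genes. Their median was -0.04 (0.31 under total counts, a change of sign). Against Sen (IR), 7 were higher and 10 lower, beside 34.0% and 31.3% of all genes. HK2, a hexokinase, read 126, 130.4 and 132 CPM in Prol, 310.3, 308 and 278 CPM in Sen (IR) and 433, 454 and 411 CPM in Sen (IR) + CCCP, with 1.74 ± 0.05 (SE) (adjusted p = 1.9e-17), and was 1 of the retained rises. PFKP and ALDOC had -1.24 and -1.23 and PFKFB4 had 0.90.

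Hypoxia targets and metallothioneins were mixed too. Of 15 hypoxia targets 9 were lower and 5 higher, the latter near the 35.1% of all genes. Their median was -0.31 (0.05 under total counts, a change of sign). Against Sen (IR), 7 were lower and 6 higher, beside 31.3% and 34.0% of all genes. EGLN3, an oxygen-sensing hydroxylase, read 9.93, 10.1 and 9.54 CPM in Prol, 3.50, 3.42 and 2.55 CPM in Sen (IR) and 0.948, 1.01 and 0.907 CPM in Sen (IR) + CCCP, with -3.35 ± 0.21 (SE) over Prol (adjusted p = 4.04e-12), P4HA2, which hydroxylates collagen, had -1.20 ± 0.08 (SE) (adjusted p = 1.62e-11), CA9 -1.31 ± 0.30 (SE) (adjusted p = 0.000534) and ANKRD37 1.38 ± 0.17 (SE) (adjusted p = 2.72e-07). The 5 metallothioneins tested had all risen in Sen (IR), and in the depleted cells 3 were lower than in Prol and none higher, with a median of -0.31 (0.05 under total counts, a change of sign). MT1L, MT1X and MT1E had log2 fold changes over Prol of -0.82, -0.63 and -0.31, and under total counts MT1X stood at -0.27, no longer called, and MT1E at 0.05, and MT1G was detected almost only in Sen (IR), at 0.446, 0.384 and 0.689 CPM. All 5 were lower than in Sen (IR), and metallothioneins are near-identical copies whose shared reads were not counted.

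**Figure D5:**
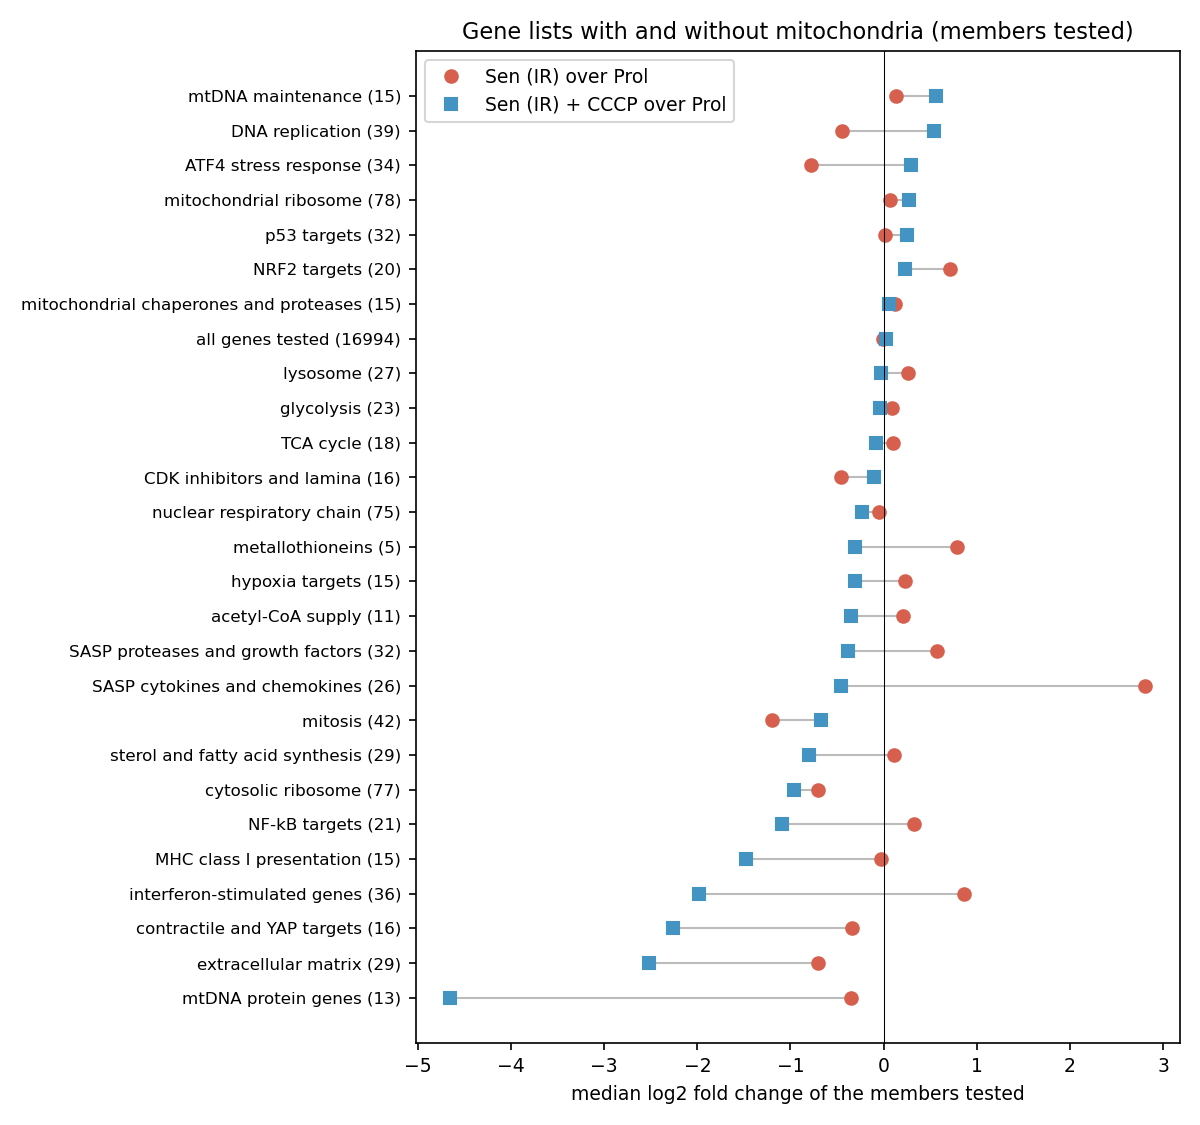
Median log2 fold change over Prol of the members tested of each of the 26 gene lists, in Sen (IR) and in Sen (IR) + CCCP, beside all genes tested. The mtDNA genes (-4.65), extracellular matrix (-2.52), contractile genes (-2.26) and interferon-stimulated genes (-1.98) are lowest after depletion, and mtDNA maintenance (0.56) and DNA replication (0.54) highest.

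The classes differed in kinds of gene and in promoter sequence, as descriptions without a test. Long non-coding RNA genes were 23.0% of the retained rises, 21.6% of the lost rises and 22.2% of the new rises. They were 13.3% of all genes tested and 13.6%, 15.4% and 14.4% of the retained, lost and new falls. At the floor of counts in Prol or the depleted cells were 177 of the 727 retained rises and 56 of the 599 new rises. Among falls, 21 of the 574 retained and 46 of the 963 new ones were at that floor. The part of low counts in the share of long non-coding RNA genes was not tested. The turned genes were 89.9% protein coding, beside 79.3% of all genes tested. A RefSeq promoter of 300 bases, from 250 before to 50 after the start, was found for 11861 of the genes tested. A TATA box (TATAAA) lay in 28.2% of the 71 promoters of turned genes and 15.9% of the 429 of retained rises, beside 6.27% of all, and the AP-1 site (TGANTCA) in 11.3% and 11.2%, beside 5.03%. The median GC content was 55.3% for turned genes and 60% for retained rises, beside 65.0% for all.

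Known elements of the lists' regulators were searched in the promoters. The ISRE lay in 60.7% of 28 promoters of interferon-stimulated genes and 58.3% of 12 of MHC class I genes, beside 2.98% of all, and in 15.5% of turned genes. The NF-κB site lay in 52.6% of 19 promoters of SASP cytokines and 44.4% of 18 of NF-κB targets, beside 6.60% of all, and in 12.3% of the 609 promoters of new falls and 15.5% of turned genes. The ATF4 element lay in 24.1% of 29 promoters of ATF4 genes, beside 1.85% of all. The antioxidant response element (TGAC, any 3 bases, GC) lay in 28.6% of 14 promoters of NRF2 targets, beside 15.2% of all, and the sterol regulatory element (TCAC, any base, CCAC) in 1 of 23 of sterol and fatty acid genes, 4.35%, beside 1.15%. The hypoxia core (ACGTG) lay in 42.9% of 14 promoters of hypoxia targets, beside 26.2%, and the p53 half-site in 14.8% of 27 of p53 targets, beside 5.32%. The CHR lay in 69.4% and the CCAAT box in 75.0% of 36 promoters of mitotic genes, beside 10.2% and 36.3% of all. Among those, the 8 promoters of retained falls and the 8 of lost falls had the same shares, 75.0% with the CHR and 87.5% with the CCAAT box. Sets of 8 promoters are too small to say whether these letters differ between the classes. A match is not evidence of binding, and promoters of genes with several starts were represented by 1.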

How the data were processed

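RNA-seq of polyA RNA (paired reads of 150 bases) gave 18 libraries, 3 in each of 6 groups, each mapped to its group by its label. The authors used Trimmomatic 0.36 for trimming, STAR 2.5.2b for alignment to GRCh38 and featureCounts (Subread 1.5.2) for counting, and deposited raw counts per gene from reads that mapped to a single place. TPM for the same libraries were also deposited by the authors and serve here for markers and as an alternative for the mtDNA share. The methods state that strand was used in counting where a library kept it, but whether these libraries did is not given in the sources used here, so overlapping and antisense genes may share reads.

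All 18 libraries entered 1 quasi-likelihood model of their counts (edgeR 4.0.16, R 4.3.3), with TMM, filterByExpr by group and no block. Benjamini-Hochberg adjusted p-values cover 16994 genes (threshold 0.05), and classes also need 2-fold. The common biological coefficient of variation was 0.0644. CPM use TMM-scaled library sizes. SE is the absolute value of edgeR's unshrunk log2 fold change divided by the square root of F. The printed log2 fold change is the one edgeR's test returns, which can differ from the unshrunk one at low counts. A gene that stayed at or below 3 counts in each library of a group has a bound from 3 counts per library, for counting error only. The labels do not state separate cultures, so p-values measure only the spread between these samples, and every pair of libraries of one group differed by more than sampling noise. The procedure was tested on simulated data.

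The comparison and the 26 gene lists were chosen with earlier results of these data known. Named genes were the 6 largest changes per class at a mean of at least 5 CPM, the 4 largest per list, and 14 fixed genes. CXCL1, CXCL5, EREG, SERPINB2, IL11, PTGS2, TAP2, VCAN, ATF4, PSAT1, CCNB1, RPLP0, RPL17, RPL23A and RPL41 were named after their values were seen. List members ACSS1, FGF21, CCL7, CCL8, MMP13, MT1A, MT1F, MT1H and MT1M did not pass the filter. Some genes that these rules or the labels name are not reported here. Coordinates are from GENCODE on GRCh38 and promoters from RefSeq on GRCh38.p14. Alternatives were DESeq2 1.42.0 (size factors, Wald test and a nominal rule), total counts, other filters, mtDNA genes left out, 9 libraries, a replicate block, other fold floors and each library left out.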

Additional observations from a re-analysis of the deposited data

How the results depend on the processing

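Scaling by total counts in place of TMM gave 9166 genes higher and 3521 lower over Prol, 3434 lower than in Sen (IR), 1261 new rises and 593 new falls, turned the log2 fold changes over Prol of ASNS (0.21), MT1E (0.049) and ACLY (0.32), ended the calls of PHGDH (-0.11), ADARB1 (-0.02) and MT1X (-0.27), and made ADM2 (0.53) and CCL20 (2.75) pass. Under it the medians of the respiratory chain, TCA cycle, glycolysis, acetyl-CoA, CDK inhibitor, lysosome, hypoxia and metallothionein lists changed sign. With at least 10 counts in every library, which tests fewer genes, there were 237 retained, 93 lost and 333 new rises, 304 retained and 101 lost falls and 55 turned genes. A floor of 1.5-fold gave 1143 retained, 459 lost and 1369 new rises, 1343 retained, 457 lost and 1498 new falls and 286 turned genes, and one of 4-fold gave 295, 82 and 106 rises, 81, 16 and 305 falls and 13 turned. DESeq2 at a nominal p of 0.05 and a log2 fold change of 0.5 called 3774 genes higher. The mtDNA share differed by -12.6 points in TPM, against -2.50 in counts. With each library left out in turn, genes higher over Prol ranged from 5602 to 6118 and lower from 5515 to 5948, and CD36, a lost rise, ranged from -0.078 to 0.545, with the lowest value without Prol replicate 2. DESeq2's size factors and Wald test, no filter, mtDNA genes left out and 9 libraries kept every count within 1.5 times. RSAD2 and CCL20 passed with the Wald test, without the filter and with 9 libraries, and MIR3142HG with 9 libraries. Deviations of same-numbered libraries correlated at -0.072 to 0.163 and those of other pairs at -0.172 to 0.107. No strong pairing by number was seen, and 3 libraries per group cannot exclude a weak one. With the replicate block 5987 genes were higher and 5787 lower over Prol, and the block changed 1 named call, that of CCL20 (2.37), which passed. Of 2478 values of named genes under alternatives, 2453 kept direction and side of the threshold, and of 441 list medians taken relative to all genes, which removes a shift common to all genes, 356 moved by less than the spread between libraries. Depth limits the genes at the floor of 3 counts, whose folds are bounds.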

Other observations

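Gene families outside the lists, chosen after their values were seen, are given here as values. Histone genes of the HIST clusters were higher than in Prol for 34 of 34 tested, with a median log2 fold change of 2.36, and for 30 of 34 in Sen (IR), with a median of 2.08. HIST1H4H read 3.95, 5.44 and 4.03 CPM in Prol, 40.5, 39.0 and 45.6 CPM in Sen (IR) and 93.8, 89.1 and 91.2 CPM in Sen (IR) + CCCP. Replication-dependent histone mRNAs lack a poly(A) tail, and these libraries were made from polyA RNA, so the counts cover the polyadenylated part. All 4 ID genes were higher, with a median of 3.08 against -0.26 in Sen (IR). ID4 read 0.587, 0.481 and 0.364 CPM in Prol, 0.516, 0.307 and 0.413 CPM in Sen (IR) and 4.21, 4.32 and 2.98 CPM in Sen (IR) + CCCP. All 3 NR4A genes, immediate early nuclear receptors, were higher, with a median of 4.55, and NR4A2 read 2.07, 1.89 and 1.33 CPM in Prol, 12.8, 10.5 and 10.3 CPM in Sen (IR) and 70.3, 71.4 and 66.2 CPM in Sen (IR) + CCCP. Among FOS and JUN genes 4 were higher and 3 lower. FOS was turned upwards, at 2.19, 1.74 and 2.00 CPM in Prol, 0.775, 0.729 and 0.654 CPM in Sen (IR) and 7.11, 7.60 and 6.71 CPM in Sen (IR) + CCCP.

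Elongation factor genes were lower for 5 of 5, with a median of -0.83 against -0.45 in Sen (IR), and EEF1A1 read 9808, 9766 and 9937 CPM in Prol, 5835, 5776 and 6359 CPM in Sen (IR) and 1305, 1293 and 1243 CPM in Sen (IR) + CCCP. Tubulin genes were lower for 9 of 13 and higher for 3, against 5 lower and 7 higher in Sen (IR). Proteasome subunit genes were higher for 19 of 37 and lower for 1 in Sen (IR). In the depleted cells 8 were higher than in Prol and 12 lower, the latter near the 34.1% of all genes, and 24 were lower than in Sen (IR). Zinc-finger genes were higher for 225 of 490 and lower for 95, with a median of 0.22, against 76 higher and 139 lower in Sen (IR). HOX genes were higher for 7 of 21 and lower for 5, near the shares of all genes.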
